A study of Homo sapiens with 3 samples.

Results

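High-pileup MYC regions that were called in untreated P493 cells and had no MST-312 call nearby were described. P493 is a human B cell line with a repressible MYC gene. Each listed row of the untreated peak list counted as a region, and its pileup is the number of sequenced fragments, each extended to 200 bp, that cover its summit. A region was chosen when its pileup was at least 70, it shared no base with any region of the MST-312 list, and it lay more than 1 kb from every one of them. The rule found 1448 regions, here called untreated-only regions, among 13782 untreated regions of pileup at least 70 and 31378 untreated regions in all. The members were thus chosen by their untreated pileup and by their distance from the MST-312 list. Of the other regions of that pileup, 12104 overlapped an MST-312 region by 1 bp or more (partnered regions), and 230 overlapped none but had one within 1 kb.

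The series holds 3 samples, each a single library: MYC chromatin immunoprecipitation (ChIP) from cells without treatment, MYC ChIP from cells given MST-312, and input DNA from cells without treatment. The ChIP libraries used antibody N262 (sc-764) against MYC, and both peak lists were called against the same input. The MST-312 list holds 27614 regions. The labels state neither the dose and duration of MST-312 nor whether the MYC gene was on. The untreated library kept 60805153 tags after limiting duplicates and the MST-312 library kept 55400354, or 91.1% of that number, and the redundant rate was 0.24 and 0.49. Each condition is 1 library and the regions of a library are not replicates, so no test was run and no p-value is given. Intervals are exact 95% intervals (Clopper-Pearson for shares, order statistics for medians) and cover only counting error, not the spread between libraries.

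MYC is a transcription factor that binds DNA as a dimer with MAX, with a preference for E-box sequences. In B cells with high MYC it is known to occupy most active promoters and many enhancers, strongly at some sites and weakly at many others. MST-312 is a small molecule known as a telomerase inhibitor. A peak list records such occupancy only where the ChIP signal passes a threshold over the input, so absence from a list is not absence of binding.

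By the rule, untreated-only regions made up 10.5% of untreated regions of pileup at least 70 (interval 10.0 to 11.0). Over all untreated regions, whatever their pileup, 41.6% lay more than 1 kb from every MST-312 region. The pileups of untreated-only regions had a median of 82 fragments and quartiles of 75 and 95, and ran from 70 to 463. Most therefore lay close to the threshold of the rule: 611 had pileups from 70 to under 80, 338 from 80 to under 90 and 220 from 90 to under 100. Another 198 lay from 100 to under 125, 58 from 125 to under 150 and 17 from 150 to under 200, and 6 had 200 or more.

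Their share of all regions fell as the pileup rose. It was 611 of 2035 at pileups under 80 (interval 28.0 to 32.1%), 20.6% from 80 to under 90, 16.2% from 90 to under 100 and 7.62% from 100 to under 125. It was 3.34% from 125 to under 150, 0.814% from 150 to under 200 and 0.258% (0.0948 to 0.561) at 200 or more. The threshold of 70 marks no step in this series. At a pileup of 69, just outside, 85 of 226 regions had no MST-312 region within 1 kb, and at 70, just inside, 79 of 239 had none. The region of pileup 70 with the highest −log10 q (57.1) lay on chromosome 15 at 44876149-44876946, and that of pileup 69 (51.4) on chromosome X at 128674041-128674488.

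The tallest untreated-only region stood far from the others. It lay on chromosome 9 at chr9:4792186-4794235 (hg19, as are all positions below), was 2050 bp long, and had a pileup of 463 fragments over a local background of 19.3 fragments in the input. It was 50.2 kb from the nearest MST-312 region and 29.2 kb from the nearest other untreated region. The next in pileup was chr3:197228442-197229307 with 218 fragments. It was followed by chr17:74178050-74178687 with 215 fragments, chr11:189754-190404 with 210, chr17:57642506-57643331 with 209 and chr7:50535664-50536075 with 202. The remaining regions among the 12 of highest pileup were chr9:131625852-131626369 (192 fragments), chr2:45182705-45183242 (188), chr7:6120794-6121497 (185), chr17:47633251-47634021 (185), chr15:55790290-55791545 (174) and chr3:101280482-101281126 (169). They lay on 7 chromosomes, with 3 on chromosome 17.

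These tall regions lay well beyond the 1 kb that the rule requires. The nearest MST-312 region lay from 11.3 kb (chr3:101280482-101281126) to 176.2 kb (chr2:45182705-45183242) from them. For chr7:50535664-50536075 the nearest MST-312 region (17.3 kb) and the nearest other untreated region (17.2 kb) were at nearly the same distance. The same held for chr17:57642506-57643331, at 52.8 and 53.1 kb, and for chr2:45182705-45183242, at 176.2 and 176.3 kb. Others had an untreated region much nearer than an MST-312 one. These distances were 1.59 and 16.3 kb for chr11:189754-190404, 7.66 and 52.1 kb for chr3:197228442-197229307, and 29.2 and 50.2 kb for chr9:4792186-4794235.

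Untreated-only regions were shorter than partnered regions of equal pileup. Their median length was 701 bp (interval 679 to 727, quartiles 485 and 988). Partnered regions, weighted to have the same number at each exact pileup, had a median of 966 bp and quartiles of 672 and 1339 bp. The region of pileup 463 had no partnered region of equal pileup and does not enter the weights. The rule bears on length: a longer region has more bases that can overlap an MST-312 region or lie near one. How much of the difference comes from this was not tested. Of untreated-only regions, 26.9% (24.6 to 29.2) were under 500 bp long, against 10.7% of partnered regions at equal pileup. Only 19 of 1448 were 2000 bp or longer (1.31%, 0.792 to 2.04), against 5.79%. In bp, summits also lay nearer to an edge, at a median of 232 bp against 308 bp. This distance was not scaled to the length of the region, so it is no trait apart from length.

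**Figure D1:**
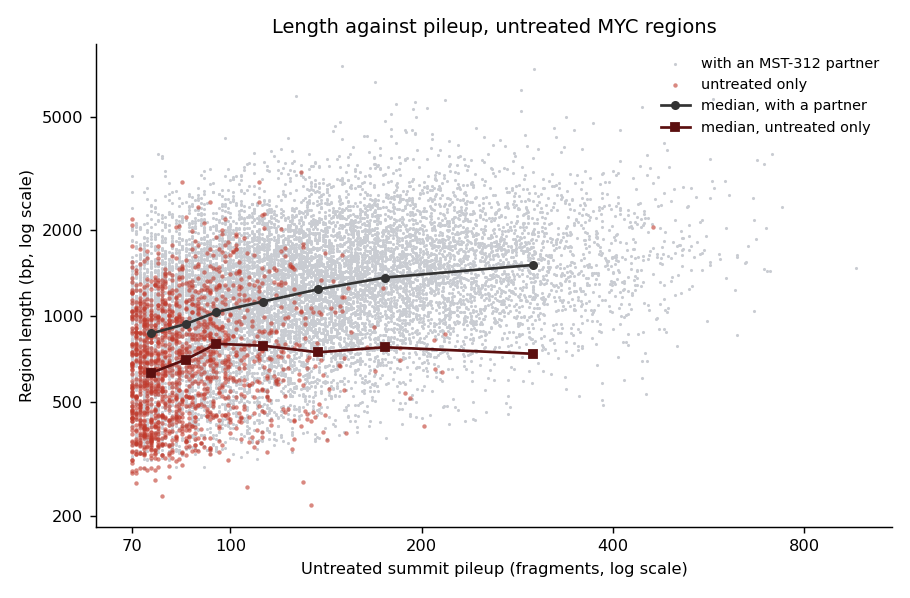
Region length in bp against untreated summit pileup in fragments, both on log scales, for the 1448 untreated-only regions (red) and the 12104 partnered regions (grey); lines join medians in pileup classes. The partnered median rises from 870.5 to 1514 bp, while the untreated-only median runs from 633 bp to 738.5 bp and does not pass 800.5 bp.

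The gap in length changed little below 100 fragments and widened with pileup from there, as the plot of length against pileup shows. From 80 to under 90 fragments the medians were 705 bp in untreated-only and 939 bp in partnered regions. Partnered regions had median lengths of 870.5 bp at pileups under 80, 1035 bp from 90 to under 100, 1244 bp from 125 to under 150 and 1514 bp at 200 or more. Untreated-only regions had medians of 633, 800.5, 747.5 and 738.5 bp in the same classes, so that taller ones were not longer beyond 90 fragments. The last of these medians rests on 6 untreated-only regions. Each untreated-only region was also ranked by length among partnered regions whose pileup lay within 5% of its own. Of the 12 tallest, 9 were shorter than 90% of such regions, and 11 were shorter than their median. The narrowest of these was chr7:50535664-50536075, which was 412 bp long with 202 fragments, and none of 576 partnered regions of like pileup was shorter (median 1443.5 bp). The region chr9:131625852-131626369 was 518 bp long against a median of 1398.5 bp, and chr2:45182705-45183242 was 538 bp long against 1404.5 bp. The region of pileup 463 did not share this shape: its 2050 bp exceeded the length of 65.1% of its 63 counterparts, whose median was 1638 bp. The region chr15:55790290-55791545, at 1256 bp, lay close to its counterparts' median of 1373 bp.

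Length and pileup each went with the share. At pileups under 80, untreated-only regions made up 43.3% of regions under 600 bp (39.4 to 47.2), 30.4% of those from 600 to under 1000 bp and 16.6% of those of 1000 bp or more. At 100 fragments or more the shares were 15.9% (12.9 to 19.3), 4.89% and 1.55% (1.26 to 1.89). The extremes of length differed in background. The shortest was chr17:41466267-41466484, 218 bp long, where 134 fragments stood over a local background of 55.0 fragments. The longest was chr21:47742315-47745522, 3208 bp long, where 129 fragments stood over 5.73 fragments. The next longest were chr11:65381153-65384110 (2958 bp, pileup 84) and chr19:1026032-1028985 (2954 bp, pileup 111).

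Untreated-only regions had a higher local background in the input than partnered regions of equal pileup. The local background, calculated back from the pileup and the authors' fold enrichment, had a median of 10.6 fragments (quartiles 8.48 and 13.5). At equal pileup partnered regions had a median of 8.68 fragments (7.13 and 10.8). A background of at least 12 fragments was found in 35.6% of untreated-only regions (33.1 to 38.1) and in 17.4% of partnered ones. Fold enrichment at equal pileup carries the same information in reverse, and its medians were 7.58 and 8.83. The range of fold enrichment was wide. The highest values were 22.9 at chr9:4792186-4794235, 20.1 at chr15:55790290-55791545 and 19.6 at chr3:151256618-151257330. The lowest were 2.41 at chr17:41466267-41466484, 2.64 at chr18:111670-111932 and 2.77 at chr16:33922358-33923071. In these 3 the background was 55.0, 48.7 and 28.9 fragments, far above the median.

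The input background also sets how much MST-312 signal could go unlisted at each place. The deposited −log10 p values were recovered from pileup and local background by a Poisson upper tail to within 0.000325 in both lists (30170 untreated and 27376 MST-312 rows, leaving out the largest values). The lowest −log10 p in the MST-312 list was 15.7. For each untreated region, the highest pileup that would stay under this value was calculated at its local background scaled by the ratio of kept tags (91.1%). This listing limit assumes that the MST-312 list holds every call above its lowest value and that the background at an MST-312 summit is that of the untreated summit. Among 1761 pairs with summits within 10 bp, the MST-312 background had a median of 91.1% of the untreated one, with 10th and 90th percentiles of 85.4% and 95.3%. The limit is not strict: 256 of 12104 partnered regions (2.12%) were listed with an MST-312 pileup at or under their own limit.

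The listing limits of untreated-only regions were close to the middle of their untreated pileups. The median limit was 43 fragments (range 27 to 117), and as a percentage of the region's own untreated pileup it had a median of 50.6% and quartiles of 44.1% and 58.6%. Partnered regions at equal pileup had a median limit of 46.5% of their pileup, while the MST-312 pileups measured in their partners had a median of 60 fragments, or 70.1% of the untreated value, and a 10th percentile of 51.2%. Measured MST-312 pileups, here and below, come from listed calls only, the highest where several overlapped. Values under the listing limit are thus mostly missing from them, and they do not give the signal at unlisted places. Over all 12104 partnered regions the MST-312 pileup had a median of 62.8% of the untreated one, which includes the lower number of kept tags. For 665 untreated-only regions (45.9%) the limit was under 50% of the untreated pileup.

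**Figure D2:**
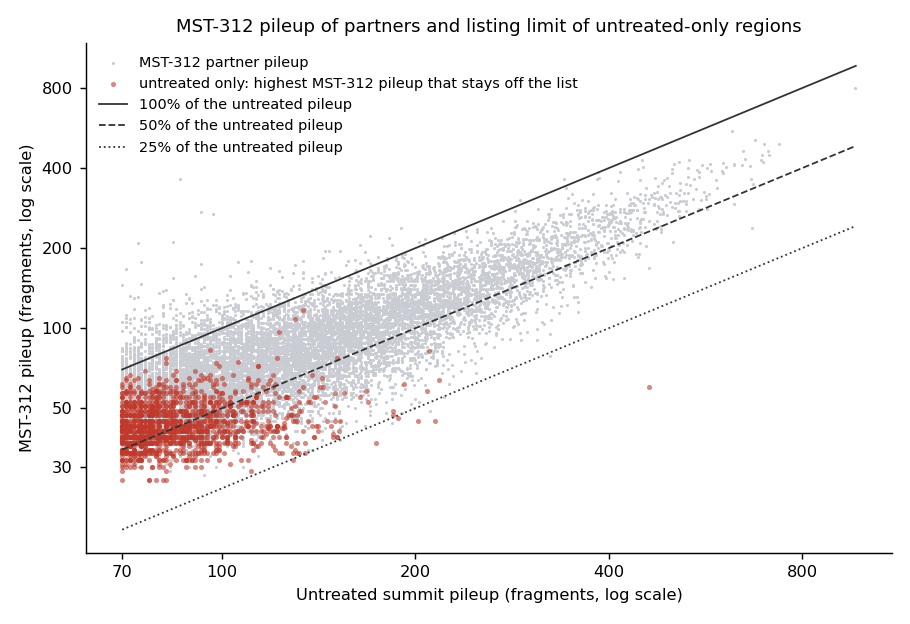
MST-312 pileup against untreated summit pileup, both in fragments on log scales; grey points are the highest MST-312 partner of each of the 12104 partnered regions, and red points are the listing limits of the 1448 untreated-only regions, which are calculated and not measured. Most red points lie around the 50% line, and the region of 463 fragments with its limit of 60 lies below the 25% line and apart from all others.

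The share of untreated-only regions followed the listing limit closely. Where the limit was under 20% of the untreated pileup, 1 of 2072 regions was untreated-only. The share was 0.345% for limits of 20 to under 25%, 1.76% for 25 to under 30%, 3.30% for 30 to under 35% and 132 of 1650 for 35 to under 40%. It continued to 12.4%, 19.8% and 27.1% in the classes from 40, 45 and 50%, and reached 37.4% from 60% and 52.7% (45.6 to 59.7) at 70% or more. The limit is built from pileup and background, and the pileup is part of the rule, so this is a description of how the members are spread. Length, which does not enter the limit, still separated the shares within its classes. It does bear on the rule, as a longer region has more bases that can meet an MST-312 region. For limits of 45 to under 50%, untreated-only regions were 35.9% of regions under 600 bp (30.1 to 42.0), 21.5% of those from 600 to under 1000 bp and 10.7% (8.25 to 13.6) of longer ones. The same order held in each of the classes from 25 to 70%.

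**Figure D3:**
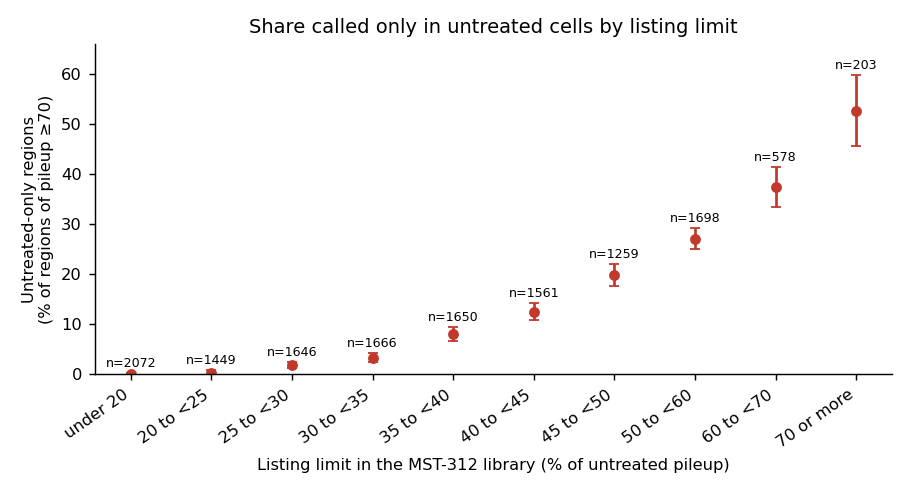
Share of untreated-only regions, in percent of untreated regions of pileup at least 70, by class of listing limit in percent of the untreated pileup; bars are exact 95% intervals over regions and n is the number of regions in a class. The share runs from 1 of 2072 regions under 20% to 52.7% of 203 regions at 70% or more.

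For 35 untreated-only regions the limit was under 30% of the untreated pileup. They were 0.677% (0.472 to 0.941) of the 5167 regions with such a limit, of which 5130 were partnered. In those partnered regions the MST-312 pileup was 58.1% of the untreated one at the median and 23.2% at the lowest, and 37 were under 30%. The 35 regions lay on 19 chromosomes, with untreated pileups of 107 to 463 fragments (median 139) and limits of 29 to 64 fragments. Their median length was 716 bp, against 1408 bp in the partnered regions with such a limit. Their distance to the nearest MST-312 region ran from 1.88 to 563.3 kb, with a median of 22.8 kb. The count of 35 depends on the background taken: with the background raised by 25%, it was 15.

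Within this set the region on chromosome 9 at chr9:4792186-4794235 had the lowest limit, 60 fragments against 463 in untreated cells (13.0%). The 63 partnered regions of like pileup had a median MST-312 pileup of 281 fragments and a lowest of 169. Next came chr17:74178050-74178687, with a limit of 45 fragments against 215 (20.9%), and chr15:55790290-55791545, with 37 against 174 (21.3%). Their counterparts of like pileup had median MST-312 pileups of 122 and 99 fragments, and lowest ones of 49 and 43. The limits were 45 against 202 (22.3%) at chr7:50535664-50536075, 46 against 188 (24.5%) at chr2:45182705-45183242 and 32 against 129 (24.8%) at chr21:47742315-47745522. These 6 were the only untreated-only regions with a limit under 25%. Of the 3515 partnered regions with such a limit, 4 had a measured MST-312 pileup under 25%. At chr2:45182705-45183242 the lowest MST-312 pileup among counterparts of like pileup was 44 fragments, under its limit of 46. Of the 35 regions with a limit under 30%, 14 had a limit below the lowest MST-312 pileup of such counterparts. The low end of this ranking was chosen after the values were seen.

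Weaker MST-312 calls may exist at any of these places. The authors numbered every call, and the listed rows are a small part of them: the highest number is 777551 in the MST-312 list. Of the untreated-only regions, 1442 lay between 2 listed MST-312 regions, and in every one of these stretches at least 1 numbered call was missing from the list (median 26 calls over a median of 81.4 kb). Only 27614 of the numbered MST-312 calls are listed, so almost any stretch of such length would hold missing calls. The count is thus no trait of these regions. The positions of the missing calls are not analysed here, so the regions are described as unlisted after MST-312 and not as unbound.

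Chromosome 9 held the largest share of untreated-only regions. They were 140 of its 859 regions of pileup at least 70 (16.3%, 13.9 to 18.9). It held 9.67% of all untreated-only regions but 4.61% of partnered regions at equal pileup. Chromosomes X (13.3%, 9.22 to 18.4), 19 (13.0%, 10.9 to 15.2) and 22 (12.2%) followed, and their intervals overlap. The lowest shares were on chromosomes 10 (36 of 579, 6.22%, 4.39 to 8.50), 4 (27 of 427, 6.32%), 18 (7.51%) and 6 (8.27%). Chromosome Y had 1 region of this pileup, which was partnered.

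The input background was also highest on chromosome 9. Partnered regions there had a median local background of 13.7 fragments, against 7.71 to 9.64 fragments on each of the other chromosomes from 1 to 22 and X. When each region was given the untreated-only share of its listing-limit class over the whole genome, the sum was 131.3 regions on chromosome 9, against the 140 found. The class shares were taken from these same regions, those of chromosome 9 included, so the sums are a description. On chromosome 19 the sum was 106.0 and the number found 129, on chromosome 11 it was 70.5 against 83, and on chromosome 16 it was 63.1 against 75. On chromosome 10 the sum was 59.7 against 36 found, on chromosome 4 it was 40.1 against 27, and on chromosome 3 it was 73.7 against 63. Partnered regions on chromosomes 19, 22 and 16 had the lowest median MST-312 pileups relative to untreated ones, at 59.6%, 60.8% and 61.0%. On chromosome 10 the value was 63.6% and on chromosome 9 it was 64.9%.

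At like background, untreated-only regions made up a larger share of the regions on chromosome 9 than elsewhere in 5 of 6 background classes. The intervals overlapped in each of the 6 classes, and pileup was not held equal within them. From 6 to under 10 fragments the shares were 12.5% (6.83 to 20.4) and 8.93% (8.24 to 9.65), and from 10 to under 12 fragments 13.45% and 10.21%. From 12 to under 14 fragments they were 17.7% (12.2 to 24.4) and 11.5% (9.87 to 13.3), from 14 to under 16 fragments 18.2% and 14.5%, and from 16 to under 20 fragments 16.8% and 15.7%. From 20 fragments they were 19.6% (12.4 to 28.6) and 24.2% (18.1 to 31.1). The part of background in the difference between chromosomes was not tested.

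**Figure D4:**
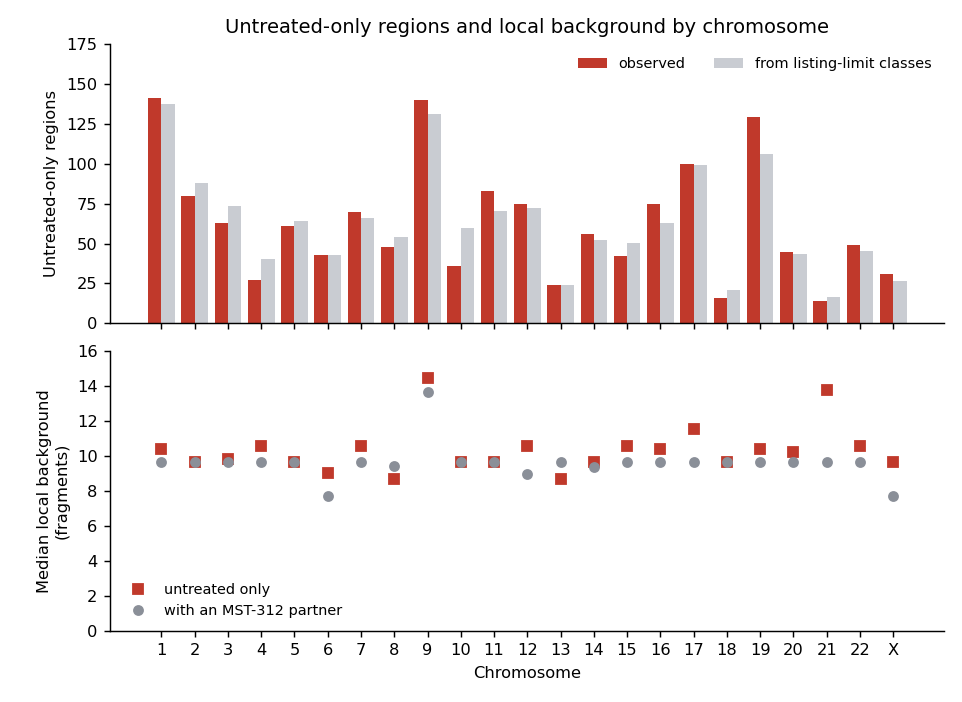
Upper panel: number of untreated-only regions on chromosomes 1 to 22 and X (red) beside the sum obtained from the genome-wide share of each listing-limit class (grey). Lower panel: median local background in fragments of untreated-only (red squares) and partnered regions (grey circles), with chromosome 9 at 14.5 and 13.7 fragments.

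Untreated-only regions lay somewhat closer to each other than partnered regions of equal pileup lay to them. Another untreated-only region was found within 100 kb of 465 of 1448 (32.1%, 29.7 to 34.6), and an untreated-only region was within 100 kb of 26.0% of partnered regions. Within 1 Mb the shares were 79.6% (77.4 to 81.6) and 73.4%. Median distances to the nearest untreated-only region were 220.2 and 317.1 kb. The rule bears on this at short range. An untreated-only region cannot lie within 1 kb of the MST-312 region of a partnered one, while untreated-only regions may adjoin each other. How much of the difference comes from this was not tested. When neighbours within 100 kb were joined, 983 regions stood singly and 465 formed 197 groups, of which 146 were pairs, 40 held 3 regions and the other 11 held 4 to 6. Regions of 1 group share their place and are not independent.

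The groups differed in how many partnered regions they held. In the 3 that lead by number of regions, with ties broken by summed pileup, untreated-only and partnered regions were mixed. The group with 6 regions on chromosome 17 spanned chr17:38095852-38348510 and held 10 partnered regions of pileup at least 70 among its 16. Its members had pileups of 74 to 94 fragments over a median background of 16.9, and the highest MST-312 pileup within the span was 554. The tallest member was chr17:38251986-38253010, with 94 fragments and an MST-312 region 1.36 kb away. The group with 6 regions on chromosome 1 spanned chr1:161008298-161196412, with 8 partnered regions among 14 and member pileups of 74 to 93. The third group, with 5 regions, spanned chr9:130879758-131124926, with 7 partnered among 12 and member pileups of 82 to 116 over a median background of 17.4. Some groups held few partnered regions of high pileup. In chr1:1981860-2178461, 5 of 8 were untreated-only and 2 partnered. In chr7:5553198-5717960, 5 of 7 were untreated-only and 2 partnered, and in chr6:27777682-27861602, which spans 83.9 kb, 4 of 6 and 1. These last 3 groups, of 5, 5 and 4 regions, were picked after their values were seen.

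Windows of 1 Mb gave a like picture. The window with most untreated-only regions, chromosome 17 from 38 to 39 Mb, held 12 of its 41 regions of pileup at least 70, where the listing-limit classes gave 7.08, and its median background was 15.6 fragments. Chromosome 9 held 9 of 41 from 131 to 132 Mb (6.01 from the classes), 8 of 41 from 130 to 131 Mb (7.70) and 8 of 51 from 139 to 140 Mb (9.36). On chromosome 11 the first Mb held 8 of 35 (3.46), at a background of 9.64 fragments. Untreated-only regions reached 50% of at least 5 regions in 2 windows, chromosome 9 from 34 to 35 Mb (6 of 12) and chromosome 1 from 55 to 56 Mb (3 of 5). All the named windows were picked by their number or share of untreated-only regions, which favours counts above the class sums. Of the windows that held any untreated-only region, 486 held 1 and 182 held 2.

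Untreated-only regions had fewer close neighbours in their own list than partnered regions of equal pileup. Another untreated region of any pileup lay within 1 kb of 141 (9.74%, 8.26 to 11.4), against 22.4% of partnered regions. The rule bears on this: a neighbour that close with an MST-312 partner can bring an MST-312 region within 1 kb. Of these 141 neighbours, 121 were themselves more than 1 kb from every MST-312 region, 12 were partnered and 8 had an MST-312 region within 1 kb. The region chr12:31789539-31790240, with 132 fragments, had another untreated region 40 bp away and no MST-312 region within 21.7 kb. At 10 kb the shares were 50.3% (47.7 to 53.0) and 55.9%, and at 100 kb they were 95.3% and 94.4%. The median distance to the nearest other untreated region was 9.92 kb (9.05 to 11.0) against 7.55 kb. The nearest other untreated region was more than 1 kb from every MST-312 region in 44.1% of cases (41.5 to 46.7), against 32.7% for partnered regions. Over all untreated regions 41.6% were that far from the MST-312 list, a value within this interval. The share for partnered regions can be lowered by the definition, since a close neighbour can lie within 1 kb of the partner's own MST-312 region.

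Distances to the MST-312 list had a lower limit set by the rule. The median was 15.5 kb (14.2 to 16.8), with quartiles of 5.87 and 38.3 kb. For partnered regions at equal pileup the nearest MST-312 region sharing no base was a median of 12.6 kb away. Beyond 100 kb lay 102 untreated-only regions (7.04%, 5.78 to 8.49), against 7.62% of partnered ones. The farthest was chr10:47599604-47600166 with a pileup of 78, 755.6 kb from any MST-312 region and 43.0 kb from an untreated one. Next was chr6:95461663-95462024 with 110 fragments over a background of 5.78, 563.3 kb from an MST-312 region and 563.1 kb from an untreated one. The third was chr7:143598566-143599579 with 73 fragments, 532.2 kb away. The nearest were chr2:47213700-47214514, chr1:118196169-118197813 and chr4:40196237-40196840, at 1.02, 1.02 and 1.04 kb, so that their place in the set turns on the 1 kb rule.

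**Figure D5:**
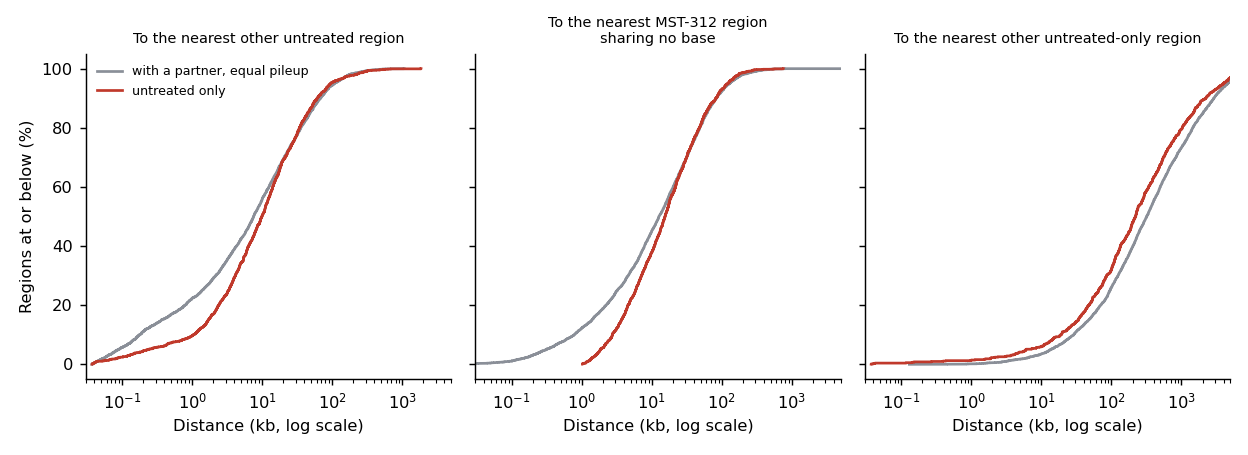
Cumulative share of regions, in percent, by distance in kb (log scale) to the nearest other untreated region, the nearest MST-312 region sharing no base and the nearest other untreated-only region, for untreated-only regions (red) and partnered regions weighted to equal pileup (grey). The curves part at short distances in the first 2 panels, with 9.74% against 22.4% within 1 kb of another untreated region, and meet near 100 kb.

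The mirror rule gave far fewer regions in the MST-312 list. Of 8305 MST-312 regions of pileup at least 70, 103 lay more than 1 kb from every untreated region (1.24%). Their median length was 554 bp. The same threshold takes 8305 of 27614 regions in the MST-312 list and 13782 of 31378 in the untreated list, so the shares stand side by side without a test. It is a stricter cut in the MST-312 list, where partners had a median of 62.8% of the untreated pileup. In the untreated list the share was 10.5% at a pileup of at least 70 and 3.19% at a pileup of at least 100.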

How the data were processed

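The submitters' processing notes name CASAVA 1.8, Bowtie2 2.2.3 and the build hg19. Per the file headers, MACS 2.0.10.20131216 called peaks in each ChIP library against the same input, without a model, with fragments of 200 bp, a p-value threshold of 0.05, a local background from windows of 1000 and 10000 bp and up to 3 duplicates per position. The deposited pileup is a signal in fragments, unscaled in both lists because the input kept more tags than either. Fold enrichment, as deposited, is the ratio of pileup to local background, with 1 added to both. MACS also gave −log10 of p and of q, used as deposited. The lowest listed −log10 q was 13.01 (untreated) and 13.02 (MST-312), a filter the file headers do not state.

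Distances are between edges. bedtools 2.31.1 gave the same 1448 regions. Python 3.11.15, numpy 2.4.6, pandas 2.3.3, scipy 1.17.1 and matplotlib 3.10.9 were used. In a simulated MST-312 list all 13782 regions were classed rightly. Named regions are the 12 of highest pileup, the 3 groups with most regions (ties by summed pileup), the extremes of fold enrichment, length and distance, and those at the threshold. The members and measures were chosen with earlier results of these data known, and the listing limit was added after the files were seen. Genes and sequences at the regions are not analysed here, for want of an annotation and sequence of that build in this work.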

Additional observations from a re-analysis of the deposited data

How the results depend on the processing

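No replicate could be left out. No paired analysis was possible because each group has 1 sample. Of 32 alternative values, 15 moved outside the reported value's interval (for counts, by over 1.5 times) and 17 did not. The count of 1448 was 279 at a pileup of at least 100 and 900 with more than 10 kb to every MST-312 region. The share of 10.5% was 3.19% at a pileup of at least 100, 12.2% with no shared base as the only rule, 6.53% with more than 10 kb and 9.80% with the same number of regions taken by −log10 q. At a pileup of at least 100 the median length was 779 bp (1165 bp in partnered regions) and the median background 11.6 fragments (9.64). Without chromosome 9, which was chosen after seeing the data, the median background was 10.22 fragments (8.68). The share with another untreated-only region within 100 kb (32.1%) was 10.0% at a pileup of at least 100, 36.6% with no shared base and 18.2% with more than 10 kb; within 1 Mb it was 79.6%. The median distance to MST-312 regions was 30.1 kb with more than 10 kb required. With the background raised by 25%, also chosen after seeing the data, 15 regions in place of 35 had a limit under 30%. In each setting for which length and background were computed, untreated-only regions were shorter and had a higher background than partnered regions of equal pileup. The settings reuse regions of the same lists and the rule bears on both traits, so they give no separate support. The planned gene-start and E-box results were not run.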
